A study of Drosophila melanogaster with 12 samples.

Results

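Genes of insulin and TOR signalling and of growth restraint, 9 in all, were followed across all 12 libraries of the series. They are Ilp6, ImpL2, InR, chico, Akt1, foxo, Thor, Sesn and CG18619 (REPTOR-BP). They were chosen by name, for their place in the pathway and with earlier results of these data known. All 9 were found among the 16413 gene names of the table, and all passed the filter on low counts. Expression was measured by RNA sequencing of polyadenylated RNA from whole Drosophila melanogaster larvae of the third instar. The 4 groups, with 3 libraries each lettered A, B and C, were high-sugar and low-sugar mlx1 mutants and high-sugar and low-sugar wild-type controls. For all libraries egg laying lasted 3 h and 24 h passed before each transfer. All larvae were kept on 10% yeast plates first. High-sugar larvae then spent 8 h on 10% yeast to which 20% sucrose was added, and low-sugar larvae 1.5 h on fresh 10% yeast, before collection. Diet and hours after transfer therefore cannot be told apart in any diet contrast, nor can diet and a tag in the column names whose meaning is not stated. There was 1 mutant and 1 control line, so genotype and line cannot be told apart either.

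In flies as in mammals, insulin-like peptides bind the insulin receptor, which acts through its substrate chico, a lipid kinase and Akt to drive growth and to keep the transcription factor foxo out of the nucleus. The TOR kinase complex promotes growth and protein synthesis when nutrients and insulin are plentiful. When insulin or TOR signalling is low, foxo and the transcription factor pair REPTOR and REPTOR-BP switch on genes that restrain growth, among them the translation inhibitor Thor. Mlx, the protein missing in mlx1 mutants, pairs with Mondo, a transcription factor that responds to sugar.

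The Mlx gene, named bigmax in the table, had 0.893 ± 0.168 CPM in mutants on high sugar and 0.694 ± 0.201 CPM in mutants on low sugar, against 32.6 ± 1.92 CPM in wild type on high sugar and 27.0 ± 0.730 CPM in wild type on low sugar (SD, n = 3 each). CPM are counts scaled to a common library size, here with TMM factors, which correct for library composition. Library totals ranged from 8924342 to 12507970 counts. Per gene and library the 9 genes had between 75 counts, for CG18619, and 11729 counts, for Thor.

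The table places Ilp6 on chromosome X (X:2225526-2228691), ImpL2 on 3L (3L:4224006-4236147), and InR, Akt1 and foxo on 3R (3R:17395970-17445043, 3R:11924950-11930237 and 3R:9882667-9913700). Thor (2L:3478434-3479612), chico (2L:10242512-10247078) and CG18619 (2L:10264125-10265229) lie on 2L, and Sesn lies on 2R (2R:19601423-19620706). The build of these positions is not given in the sources used here. Values are sums over exon entries. Of the 6 entries of CG18619, 4 overlap each other and were 0 in every library, so its level rests on 430 bases. In foxo 6 of 16 entries were 0 in every library. Of the 11 entries of chico, 2 overlap CR44995, which RefSeq lists as an antisense RNA, and reads of the pair cannot be told apart because the strand setting is not given.

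The growth restraint genes Thor, Sesn and CG18619 and the insulin receptor gene InR stood higher on high sugar than on low sugar in both genotypes, and more so in mutants. A gene is called when its Benjamini-Hochberg adjusted p over the 10045 genes tested, from edgeR's quasi-likelihood test, is under 0.05. In mutants 6 of the 9 genes rose on high sugar and none fell, where 13.5% of all genes tested rose and 15.7% fell. The 6 were Thor, CG18619, Sesn, InR, Ilp6 and chico. In wild type 4 of the 9 rose on high sugar and none fell, where 11.5% of all genes rose and 11.6% fell, and these were Thor, CG18619, Sesn and InR. On high sugar the same 4 genes were higher in mutants than in wild type and none was lower, where 6.8% of all genes were higher and 7.06% lower. On low sugar none was higher in mutants, where 1.82% of all genes were, and Ilp6 alone was lower, where 1.77% were. The libraries of the groups did not overlap for 6 members in the mutant diet contrast, where that held for 44.7% of all genes, and for 6 in the wild-type one, where it held for 40%. Between genotypes they did not overlap for 7 members on high sugar, where it held for 37.9% of all genes, and for 3 on low sugar, where it held for 18.6%. The library letter was also used as a block within low sugar, where same-letter libraries of the genotypes deviated together. That choice was made after seeing these libraries, so calls gained with the block, here and below, are not separate support. With it 2 members were higher and 2 lower in mutants on low sugar, and 996 genes in place of 361 were called there. The labels do not say whether libraries came from separate cultures, so the p-values cover the spread of these libraries and no more, and that spread may be technical. The median log2 fold change of the 9 genes was 1.13 for the mutant diet response, 0.46 for that of wild type, 0.47 for genotype on high sugar and -0.16 for genotype on low sugar. Over all genes tested the 4 medians lay between -0.05 and 0.01.

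**Figure D1:**
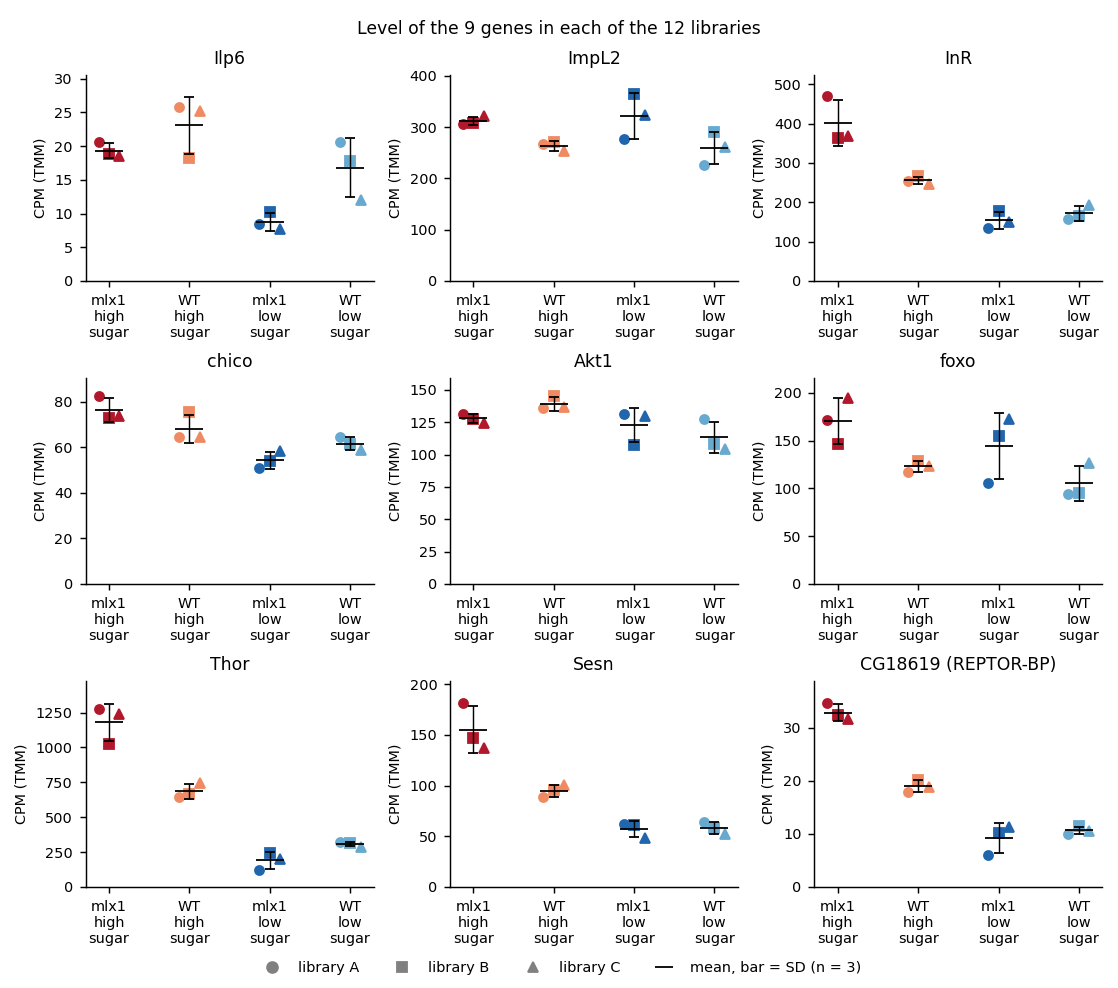
Level of each of the 9 genes in each library, in TMM-normalized CPM on an axis that starts at 0, by group. Points are libraries A, B and C, the black line is the mean and the bar the SD of 3 libraries. Thor, Sesn, InR and CG18619 separate all 3 mutant high-sugar libraries from all others. The diets overlap in both genotypes for ImpL2 and foxo, and in mutants but not in wild type for Akt1.

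Of the 9 genes Thor changed most with diet. It is the 4E-BP protein that binds the cap-binding factor eIF4E and blocks translation. In mutants Thor stood at 1272, 1028 and 1237 CPM in libraries A, B and C on high sugar, against 125, 247 and 199 CPM on low sugar. In wild type it stood at 642, 669 and 748 CPM on high sugar, against 319, 313 and 290 CPM on low sugar. No library of one group overlapped with any library of another, and the mutants held both the highest and the lowest levels of the 4 groups. The rise was 6.20-fold in mutants (log2 fold change 2.63 ± 0.21, SE, edgeR adjusted p = 9.56e-06). It was 2.23-fold in wild type (1.16 ± 0.20, edgeR adjusted p = 0.00162). On high sugar Thor was 1.72-fold higher in mutants than in wild type (0.78 ± 0.19, edgeR adjusted p = 0.0189). That call was lost without mutant library A (adjusted p = 0.0766) or C (0.0631), and without wild-type library A (0.0673) or B (0.0718), while the estimate stayed between 0.72 and 0.85 without any 1 library. On low sugar the log2 difference was -0.69 ± 0.19 and not called (edgeR adjusted p = 0.0798). With DESeq2 it was -0.69 and called (adjusted p = 0.0199), as it was with the library letter as a block within low sugar (-0.74, 0.0263), and without mutant low-sugar library B it was -0.92 and called (adjusted p = 0.0180).

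CG18619 encodes REPTOR-BP, the bZIP partner of REPTOR. It had 34.6, 32.4 and 31.6 CPM in mutants on high sugar, against 6.11, 10.2 and 11.4 CPM in mutants on low sugar. In wild type it had 17.98, 20.2 and 18.8 CPM on high sugar, against 10.0, 11.4 and 10.5 CPM on low sugar. The high-sugar groups stood apart from each other and from both low-sugar groups, while the low-sugar groups overlapped. The rise was 3.57-fold in mutants (log2 1.83 ± 0.19, edgeR adjusted p = 3.12e-05) and 1.78-fold in wild type (0.83 ± 0.18, adjusted p = 0.00741). On high sugar CG18619 was 1.73-fold higher in mutants than in wild type (0.79 ± 0.18, edgeR adjusted p = 0.0118). On low sugar the log2 difference was -0.21, with a 95% interval of -0.62 to 0.19. Its partner REPTOR, CG13624 in the table, stood at 193 ± 27.9 CPM in mutants on high sugar, against 90.1 ± 16.1 CPM in low-sugar mutants, and at 145 ± 12.3 CPM in wild type on high sugar, against 93.9 ± 7.93 CPM in wild type on low sugar (SD, n = 3 each). REPTOR rose by 1.10 ± 0.14 in mutants and by 0.63 ± 0.14 in wild type on the log2 scale (edgeR adjusted p = 0.000170 and 0.00864).

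Sesn encodes sestrin, an inhibitor of TOR complex 1 that is induced by stress. It had 182, 147 and 137 CPM in mutants on high sugar, against 62.1, 61.1 and 47.9 CPM in mutants on low sugar. In wild type it had 88.8, 95.3 and 100 CPM on high sugar, against 64.0, 58.5 and 52.5 CPM on low sugar. As for CG18619, both high-sugar groups were apart and the low-sugar groups overlapped. The rise was 2.72-fold in mutants (log2 1.45 ± 0.14, edgeR adjusted p = 2.11e-05) and 1.63-fold in wild type (0.70 ± 0.14, adjusted p = 0.00371). On high sugar Sesn was 1.64-fold higher in mutants (0.71 ± 0.14, edgeR adjusted p = 0.00437). On low sugar the difference was -0.03, with a 95% interval of -0.33 to 0.26.

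InR, the insulin receptor, followed the same order of groups. Libraries A, B and C had 469, 364 and 369 CPM in mutants on high sugar, against 134, 177 and 151 CPM in mutants on low sugar. In wild type InR had 254, 266 and 247 CPM on high sugar, against 158, 164 and 194 CPM on low sugar. The high-sugar groups did not overlap with each other or with the low-sugar groups, and mutant library A was the highest of all 12. The rise was 2.60-fold in mutants (log2 1.38 ± 0.14, edgeR adjusted p = 2.82e-05) and 1.49-fold in wild type (0.57 ± 0.14, adjusted p = 0.0107). On high sugar InR was 1.57-fold higher in mutants than in wild type (0.65 ± 0.14, edgeR adjusted p = 0.00752). On low sugar the difference was -0.16, with a 95% interval of -0.46 to 0.14.

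The substrate and the kinase downstream of the receptor differed less between groups. The substrate chico averaged 76.5 ± 5.18 CPM in mutants on high sugar, against 54.4 ± 3.68 CPM in mutants on low sugar, and 68.3 ± 6.18 CPM in wild type on high sugar, against 61.6 ± 2.86 CPM in wild type on low sugar (SD, n = 3 each). It rose 1.41-fold in mutants (log2 0.49 ± 0.10, edgeR adjusted p = 0.00276). In wild type the estimate was 0.15, with a 95% interval of -0.07 to 0.36, and not called (adjusted p = 0.300). Without the 2 entries that overlap CR44995, of which entry 1 held 63.0% to 75.4% of the counts of chico, it was 0.40 and called (edgeR adjusted p = 0.0343). Akt1 averaged 128 ± 3.65 CPM in mutants on high sugar, against 123 ± 13.1 CPM on low sugar, and 139 ± 5.37 CPM in wild type on high sugar, against 113 ± 12.3 CPM on low sugar. Its log2 diet estimate was 0.06 in mutants (95% interval -0.17 to 0.29) and 0.30 in wild type (0.07 to 0.53), neither called (edgeR adjusted p = 0.716 and 0.0622). The wild-type estimate was called with the letter block within low sugar (0.30, adjusted p = 0.0169), with RLE factors (0.34, 0.0324), with DESeq2 (0.34, 0.0113), with a filter of 5 CPM (0.28, 0.0321), with the exon entry of the highest mean (0.36, 0.0366) and without the 3 libraries with low cuticle RNA (0.41, 0.0189), and also without wild-type low-sugar library A (0.39, 0.0258) or mutant low-sugar library A (0.30, 0.0483) or B (0.30, 0.0405).

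Of the secreted members, Ilp6, an insulin-like peptide known to come mainly from the larval fat body, was the one that differed between genotypes on low sugar. It had 8.39, 10.3 and 7.71 CPM in mutants on low sugar, against 20.6, 17.8 and 12.04 CPM in wild type on low sugar. On high sugar it had 20.6, 18.8 and 18.5 CPM in mutants, against 25.9, 18.2 and 25.2 CPM in wild type. The mutant low-sugar libraries lay below all 9 others, and the other 3 groups overlapped. The difference on low sugar was -0.93 ± 0.20 on the log2 scale, or 0.524-fold (edgeR adjusted p = 0.0256). The call did not hold without wild-type low-sugar library A (-0.76, adjusted p = 0.0690) or B (-0.89, 0.103), without mutant low-sugar library A (-0.90, 0.0815) or C (-0.84, 0.112), or without mutant high-sugar library B (-0.93, 0.0504). Nor did it hold without the 3 libraries with low cuticle RNA described further on (-0.72, 0.148) or with the low-sugar groups alone in the fit (-0.93, 0.151). With the letter block within low sugar it was -0.91 (adjusted p = 0.00661).

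On high sugar Ilp6 rose 2.19-fold in mutants (log2 1.13 ± 0.20, edgeR adjusted p = 0.00138). In wild type the diet estimate was 0.46 ± 0.20 and not called (edgeR adjusted p = 0.115). It was called with the letter block within low sugar (0.49, adjusted p = 0.0348), with the exon entry of the highest mean (0.59, 0.0404) and without wild-type low-sugar library A (0.63, 0.0470). These are whole larvae, so fewer cells of a type and less RNA per cell cannot be told apart. The summed level of fat body markers was lowest in mutants on high sugar, the group with the highest InR, Thor, Sesn and CG18619. Of 8 such markers 3 passed the filter, Fbp1 was at 0 in all libraries, and their summed level was 2977 to 4196 CPM in mutants and 6662 to 10916 CPM in wild type on high sugar, and 5226 to 9991 CPM in mutants and 5098 to 7609 CPM in wild type on low sugar. Nearly all of that sum is Rfabg (apolpp), the lipid carrier of the hemolymph, whose mean was 3439 CPM in mutants and 8796 CPM in wild type on high sugar. GRHR (AkhR), the receptor for adipokinetic hormone, also had a lower mean in mutants on high sugar, 14.8 CPM against 19.3 CPM in wild type. On low sugar its means were 4.83 CPM in mutants and 5.27 CPM in wild type. With diet in mutants GRHR thus went the other way from Rfabg, whose mean on low sugar was 7521 CPM in mutants. The remaining fat body marker tested, Lsp1gamma, averaged 4.21 CPM in mutants and 6.97 CPM in wild type on high sugar. On low sugar it averaged 7.76 CPM in mutants and 9.46 CPM in wild type. In the diet response of mutants 1 of the 3 fat body markers was called higher and 2 lower. Muscle markers were not lower in mutants on high sugar, with a sum of 57272 to 61624 CPM, against 50438 to 54943 CPM in wild type. The part of these differences in the results was not tested.

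ImpL2, a secreted protein that binds insulin-like peptides and limits their action, was not called in any contrast. It averaged 312 ± 8.06 CPM in mutants on high sugar, against 322 ± 44.2 CPM in mutants on low sugar, and 264 ± 9.74 CPM in wild type on high sugar, against 259 ± 31.7 CPM in wild type on low sugar (SD, n = 3 each). The 95% intervals of the log2 diet estimates were -0.30 to 0.21 in mutants and -0.23 to 0.29 in wild type. All 3 mutant high-sugar libraries (306 to 321 CPM) lay above all 3 wild-type high-sugar libraries (253 to 271 CPM). The genotype estimate was 0.24 ± 0.12 on high sugar and 0.31 ± 0.12 on low sugar, neither called (edgeR adjusted p = 0.225 and 0.195). With the letter block within low sugar both were called, at 0.24 (adjusted p = 0.0353) and 0.31 (adjusted p = 0.0223).

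The gene foxo itself, the transcription factor whose known targets include Thor and InR, was not called between diets. On high sugar it had 171, 146 and 194 CPM in mutants, against 117, 129 and 124 CPM in wild type. On low sugar it had 106, 155 and 173 CPM in mutants, against 93.7, 95.7 and 126 CPM in wild type. The genotypes did not overlap on high sugar and did overlap on low sugar, where mutant library A was low and wild-type library C high. The genotype estimate was alike on both diets, 0.47 ± 0.18 on high sugar and 0.46 ± 0.18 on low sugar, and was called on neither (edgeR adjusted p = 0.109 and 0.208). With the letter block within low sugar it was called on both, at 0.47 (adjusted p = 0.0159) and 0.44 (0.0417). Without mutant low-sugar library A it was also called on both, at 0.47 (0.0330) and 0.64 (0.0452). With the high-sugar groups alone in the fit it was called on high sugar (0.47, 0.0224). The diet estimates were 0.24 in mutants (95% interval -0.15 to 0.63) and 0.23 in wild type (-0.16 to 0.62).

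Set per length of exon counted, so that genes can be compared, the levels in mutants on high sugar fell in the order Thor (1561 CPM per kb), ImpL2 (123), CG18619 (76.4), Sesn (57.5), foxo (46.1), Akt1 (38.0), InR (35.3), chico (24.3) and Ilp6 (8.23). In wild type on low sugar the order was Thor (407 CPM per kb), ImpL2 (103), Akt1 (33.6), foxo (28.4), CG18619 (24.8), Sesn (21.6), chico (19.6), InR (15.1) and Ilp6 (7.16). In the mutant order the libraries of Sesn and foxo overlapped, as did those of Akt1 and InR, and the other neighbours did not. In the wild-type order each pair of neighbours between Akt1 and chico overlapped, and the other neighbours did not. CG18619, Sesn and InR stood higher in the mutant order than in the wild-type one.

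The diet response of mutants exceeded that of wild type in 4 of the 9 genes, where 3.32% of all genes tested had a higher response in mutants, and it fell short in none, where 3.57% had a lower one. The difference between the log2 responses was 1.47 ± 0.27 for Thor (95% interval 0.87 to 2.07, edgeR adjusted p = 0.0102). It was 1.00 ± 0.26 for CG18619 (0.44 to 1.56, adjusted p = 0.0411), 0.81 ± 0.19 for InR (0.39 to 1.23, adjusted p = 0.0296) and 0.75 ± 0.19 for Sesn (0.33 to 1.16, adjusted p = 0.0409). The difference was not called for Ilp6 (0.67 ± 0.28, edgeR adjusted p = 0.169), chico (0.35 ± 0.14, 0.153) or Akt1 (-0.24 ± 0.15, 0.361). For foxo it was 0.02, with a 95% interval of -0.54 to 0.57, and for ImpL2 -0.07, with an interval of -0.44 to 0.30. On low sugar the mean of Thor was 190 ± 61.5 CPM in mutants and 307 ± 15.4 CPM in wild type (SD, n = 3 each), with no overlap, while InR, Sesn and CG18619 overlapped between genotypes there.

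**Figure D2:**
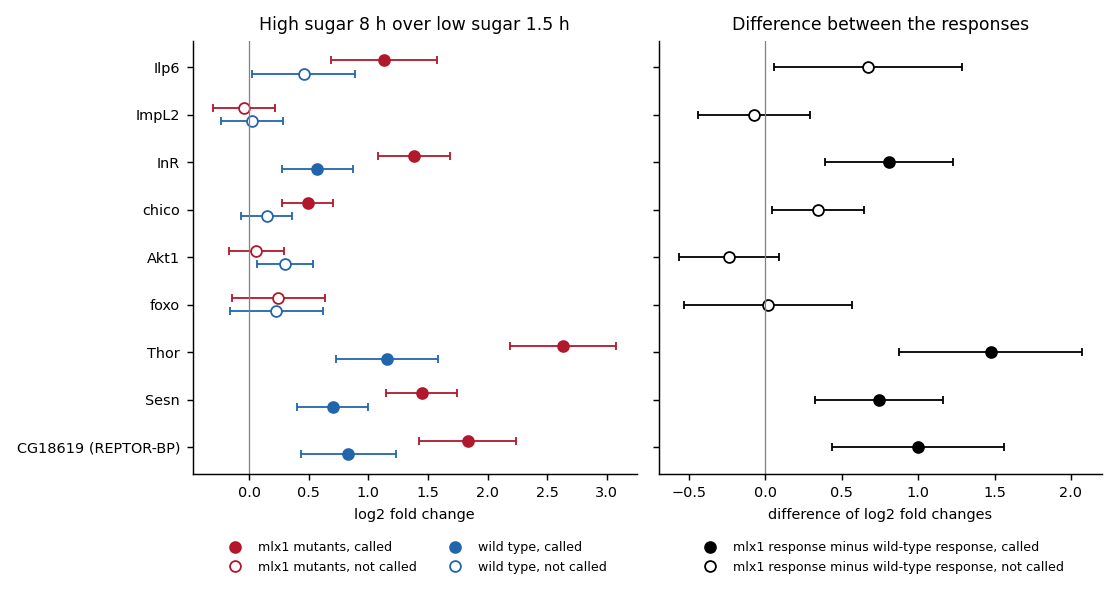
Log2 fold change of each gene on high sugar at 8 h over low sugar at 1.5 h, in mutants and in wild type (left), and the mutant response minus the wild-type response (right), with 95% intervals. Filled points are called at an adjusted p under 0.05. The 4 called differences, Thor, CG18619, InR and Sesn, run from 0.75 to 1.47.

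Thor kept its call for the difference without any 1 library (edgeR adjusted p up to 0.0354), whereas the other 3 lay close to the threshold. The InR call was lost without wild-type low-sugar library B or C, mutant low-sugar library C or any 1 of the 6 high-sugar libraries (0.68 to 0.86, adjusted p 0.0503 to 0.0800). That of Sesn was lost without wild-type low-sugar library A or B, mutant low-sugar library C or any 1 high-sugar library (0.61 to 0.83, adjusted p 0.0523 to 0.106). That of CG18619 was lost without wild-type low-sugar library B or C or any 1 high-sugar library (0.95 to 1.05, adjusted p 0.0663 to 0.101). The CG18619 call was also lost with the exon entry of the highest mean in place of the sum (0.95, adjusted p = 0.0825). With the letter block within low sugar all 4 were called, and with the letter as a block over all 12 libraries the InR difference was not (0.81, adjusted p = 0.0527).

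In the diet responses the exon entries of the genes that rose shared their sign. Of the exon entries tested in the diet response of mutants, all 12 of InR, all 8 of Sesn, all 9 of chico, all 3 of Ilp6, and both entries of Thor and of CG18619 had a positive log2 fold change. Of these 11, 8, 1, 3, 2 and 2 were called higher, where 8.17% of all entries tested were. In wild type all 12 entries of InR, all 8 of Sesn and both of Thor and of CG18619 were positive, and 7, 4, 2 and 1 of them were called, where 8.38% of all entries were. The fold changes of single InR entries ran between 0.73 and 1.49 in mutants and between 0.36 and 1.38 in wild type. For the difference of responses, InR entries were mixed, with 9 positive and 3 negative (-0.31 to 1.03). The highest was entry 1, the largest entry of the gene, while entries 3, 6 and 10 had 0.13, -0.05 and -0.06. All entries of Thor, Sesn and CG18619 had a positive difference. For mutants over wild type on high sugar, 11 entries of InR were positive and 1 negative (-0.21 to 0.91), with 2 called. For foxo all 10 entries were positive for that contrast, with 2 called, where 3.96% of all entries were higher.

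**Figure D3:**
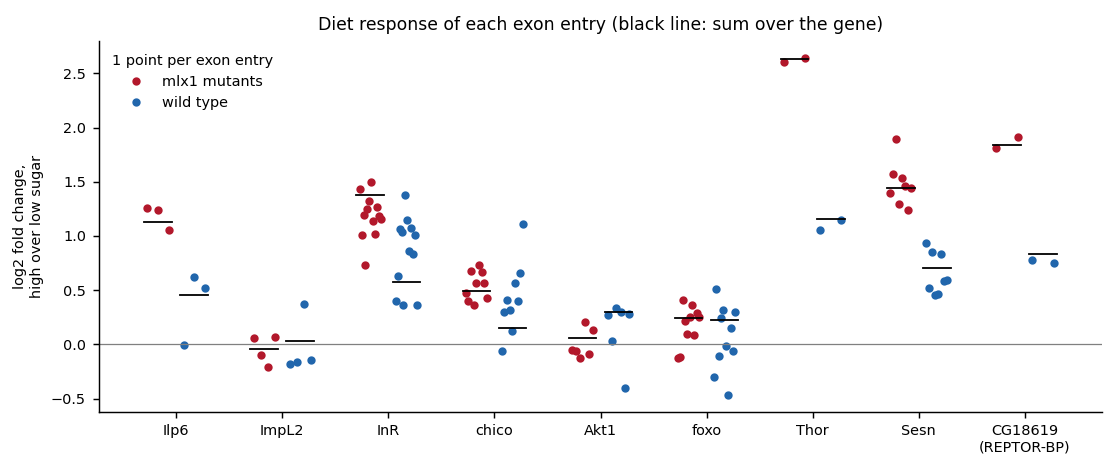
Log2 fold change on high sugar over low sugar for each exon entry that passed the filter, 1 point per entry, in mutants (red) and wild type (blue), with the value of the gene's sum as a black line. Every entry of Thor, Sesn, InR and CG18619 lies above 0 in both genotypes, while those of foxo, Akt1 and ImpL2 lie on both sides of 0.

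A test of exon usage, which asks whether an entry changed by more or less than the rest of its gene, called none of the 56 member entries tested in any contrast. Over all 32629 entries tested 0.0889% were called for the diet response of wild type, 0.046% for that of mutants, 0.0736% for genotype on low sugar, 0.129% for genotype on high sugar and 0.0306% for the difference of responses. At an unadjusted p under 0.05 (edgeR's diffSpliceDGE, the one tool run), 6, 0, 2, 2 and 1 of the 56 passed. The largest entry of InR, its entry 1 at 3R:17395970-17401638, held 80.1% to 82.9% of the gene's counts in mutants on high sugar and 72.8% to 81.3% in mutants on low sugar. It held 73.4% to 78.7% in wild type on high sugar and 81.5% to 83.0% in wild type on low sugar. In foxo the largest entry, 16, held 45.7% to 65.2% of the counts, and without it the genotype estimate on high sugar was 0.46 and called (edgeR adjusted p = 0.0185).

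Beyond the 9 members, 5 pathway lists held 90 genes, members included, of which 83 passed the filter. In the diet response of mutants 39 of the 83 rose and 7 fell, and in that of wild type 22 rose and 7 fell, beside the 13.5% of all genes that rose and 15.7% that fell in mutants, and the 11.5% and 11.6% in wild type. On high sugar 17 of the 83 were higher in mutants and none lower, beside 6.8% of all genes that were higher. On low sugar Ilp6 was the 1 gene lower in mutants, and 2 were higher, bmm (0.69 ± 0.15, edgeR adjusted p = 0.0248) and myo (0.47 ± 0.10, 0.0268). These low-sugar counts are near the shares of all genes tested, of which 1.77% were lower and 1.82% higher. The bmm call was lost without wild-type low-sugar library A or B or mutant low-sugar library A or C, and that of myo without wild-type B or C or mutant A or C (adjusted p up to 0.0931 and 0.126). Both were lost too with the exon entry of the highest mean and with the low-sugar groups alone in the fit, and that of bmm with the letter as a block over all libraries and without the 3 libraries with low cuticle RNA. In the list of insulin-like peptides and binding proteins, 8 genes were tested. With diet 1 of them rose and 2 fell in mutants, and none rose and 1 fell in wild type. Their median log2 fold change was -0.13 in mutants and -0.29 in wild type, against -0.01 and -0.05 over all genes. In mutants conv fell by 0.31, a call lost with 16 of 24 alternatives. Of the insulin-like peptides, Ilp1, Ilp3, Ilp4 and Ilp8 did not pass the filter, with at most 13 counts in any library. Ilp2, made in brain insulin-producing cells, had 13.04 ± 1.78 CPM in mutants on high sugar, against 11.7 ± 2.88 CPM in mutants on low sugar, and 10.8 ± 0.755 CPM in wild type on high sugar, against 16.4 ± 2.99 CPM in wild type on low sugar. It fell by 0.60 ± 0.20 on the log2 scale in wild type (edgeR adjusted p = 0.0455), a call lost without wild-type low-sugar library B or C, mutant low-sugar library C or any 1 high-sugar library (adjusted p up to 0.154). It was also lost with RLE factors, no filter on low counts, the exon entry of the highest mean, no overlapping entries, the cuticle covariate or DESeq2, so with 15 of the 24 alternatives.

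Between the receptor and Akt, 7 of 14 genes rose and 1 fell in mutants on high sugar, and 6 rose and none fell in wild type. Over all genes tested 13.5% rose and 15.7% fell in mutants, and 11.5% rose and 11.6% fell in wild type. The median log2 fold change of the 14 genes was 0.42 in mutants and 0.34 in wild type, against -0.01 and -0.05 over all genes. In mutants the largest rise after InR was that of trbl, a pseudokinase that holds back Akt. It had 60.4 ± 4.91 CPM in mutants on high sugar, against 25.7 ± 2.45 CPM on low sugar, and 44.9 ± 1.18 CPM in wild type on high sugar, against 30.4 ± 1.18 CPM on low sugar. It rose by 1.23 ± 0.10 in mutants (edgeR adjusted p = 9.56e-06) and by 0.56 ± 0.10 in wild type (0.00198), and the responses differed by 0.67 ± 0.14 (0.0165). The call for the difference was lost without wild-type low-sugar library B or mutant high-sugar library A or B, or without the 3 libraries with low cuticle RNA (adjusted p up to 0.0546). Pdk1, which phosphorylates Akt, rose by 0.66 ± 0.08 in mutants and by 0.72 ± 0.08 in wild type (edgeR adjusted p = 0.000114 and 0.000143). Pi3K21B, the adaptor subunit of the lipid kinase, was the 1 gene of the 83 whose response was lower in mutants (difference -1.03 ± 0.24, edgeR adjusted p = 0.0287). It had 14.9 ± 1.25 CPM in mutants on high sugar, against 22.8 ± 3.16 CPM on low sugar, and 21.1 ± 5.13 CPM in wild type on high sugar, against 15.7 ± 1.50 CPM on low sugar. That call was lost without any 1 of 7 libraries (adjusted p up to 0.0804), which were wild-type low-sugar B and C, mutant low-sugar A and C, wild-type high-sugar B and mutant high-sugar A and C.

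Of 24 genes of the TOR complexes and their regulators tested, 10 rose and 2 fell in mutants on high sugar, against 4 and 3 in wild type. The wild-type counts are near the 11.5% and 11.6% of all genes that rose and fell. In mutants more of the list rose than the 13.5% of all genes, and fewer fell than the 15.7%. The median log2 fold change of the list was -0.01 in mutants and 0.08 in wild type, against -0.01 and -0.05 over all genes. Activators and inhibitors both rose. Rheb, the GTPase that activates TOR complex 1, had 115 ± 9.03 CPM in mutants on high sugar, against 61.9 ± 2.02 CPM on low sugar, and 81.9 ± 1.00 CPM in wild type on high sugar, against 70.0 ± 4.42 CPM on low sugar. It rose by 0.89 ± 0.09 in mutants (edgeR adjusted p = 2.87e-05), and its response exceeded that of wild type by 0.66 ± 0.12 (0.0108). L, the table's name for PRAS40, an inhibitor of that complex, rose by 1.24 ± 0.14 in mutants and by 0.60 ± 0.14 in wild type (edgeR adjusted p = 5.99e-05 and 0.00943). SNF4Agamma, a subunit of the AMP-activated kinase that inhibits TOR when energy is low, rose by 0.90 ± 0.10 in mutants and by 0.79 ± 0.10 in wild type (edgeR adjusted p = 7.08e-05 and 0.000370). The 2 genes that fell in mutants, named after their values were seen, were Tor, the kinase itself (-0.56 ± 0.15, edgeR adjusted p = 0.0130), and Tsc1, of the complex that inhibits Rheb (-0.37 ± 0.11, 0.0194). On high sugar mio, a subunit of the GATOR2 complex that links amino acids to TOR, was 0.62 ± 0.14 higher in mutants than in wild type (edgeR adjusted p = 0.00997). That call was lost without wild-type high-sugar library B or mutant high-sugar library A (adjusted p 0.0507 and 0.0509), and with the exon entry of the highest mean.

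Of the 15 genes of foxo, REPTOR and their reported targets, 9 rose and 2 fell in mutants on high sugar, 8 rose and 3 fell in wild type, and 5 were higher in mutants on high sugar. Beside these counts, 13.5% of all genes tested rose and 15.7% fell in mutants, and 11.5% rose and 11.6% fell in wild type. On high sugar 6.8% of all genes were higher in mutants. The median log2 fold change of the 15 genes was 0.56 in the mutant and 0.34 in the wild-type diet response, against -0.01 and -0.05 over all genes. The widest genotype difference of this list was that of bmm, the brummer triglyceride lipase, at 171 ± 23.0 CPM in mutants and 34.2 ± 5.11 CPM in wild type on high sugar, and at 112 ± 5.19 CPM in mutants and 69.6 ± 11.8 CPM in wild type on low sugar. It was 4.99-fold higher in mutants on high sugar (log2 2.32 ± 0.16, edgeR adjusted p = 1.71e-06). Unlike Thor, it fell on high sugar in wild type (-1.02 ± 0.15, edgeR adjusted p = 0.000748), and the responses differed by 1.63 ± 0.21 (0.00166). Lk6, a kinase of eIF4E, rose by 0.93 ± 0.10 in mutants and by 0.69 ± 0.10 in wild type (edgeR adjusted p = 3.57e-05 and 0.000503). The binding partner of Thor, eIF-4E, fell by 0.42 ± 0.11 in mutants and by 0.36 ± 0.11 in wild type (edgeR adjusted p = 0.0155 and 0.0392), and was named after its values were seen.

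Autophagy is the breakdown of the cell's own parts, which active TOR represses. Of 22 autophagy genes tested, 12 rose and none fell in mutants on high sugar, against 4 and 0 in wild type, and 5 were higher in mutants on high sugar. Of all genes tested 13.5% rose and 15.7% fell in mutants, and 11.5% rose and 11.6% fell in wild type. On high sugar 6.8% of all genes were higher in mutants. The median log2 fold change of the autophagy genes was 0.47 in the mutant and 0.14 in the wild-type diet response, against -0.01 and -0.05 over all genes. Pi3K59F (Vps34), the lipid kinase of autophagosome formation, had 38.1 ± 4.87 CPM in mutants on high sugar, against 19.4 ± 1.16 CPM on low sugar, and 19.6 ± 2.67 CPM in wild type on high sugar, against 19.0 ± 0.525 CPM on low sugar. The responses differed by 0.93 ± 0.18 (edgeR adjusted p = 0.0118). Atg13, of the Atg1 kinase complex, had 75.7 ± 1.51 CPM in mutants and 41.7 ± 3.90 CPM in wild type on high sugar, a log2 difference of 0.86 ± 0.11 (edgeR adjusted p = 0.000367). The autophagy receptor ref(2)P rose by 1.20 ± 0.14 in mutants and by 0.76 ± 0.14 in wild type (edgeR adjusted p = 8.12e-05 and 0.00277). CG8678 (Atg18b) rose by 1.54 ± 0.19 in mutants and by 1.10 ± 0.19 in wild type (edgeR adjusted p = 9.99e-05 and 0.00167).

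**Figure D4:**
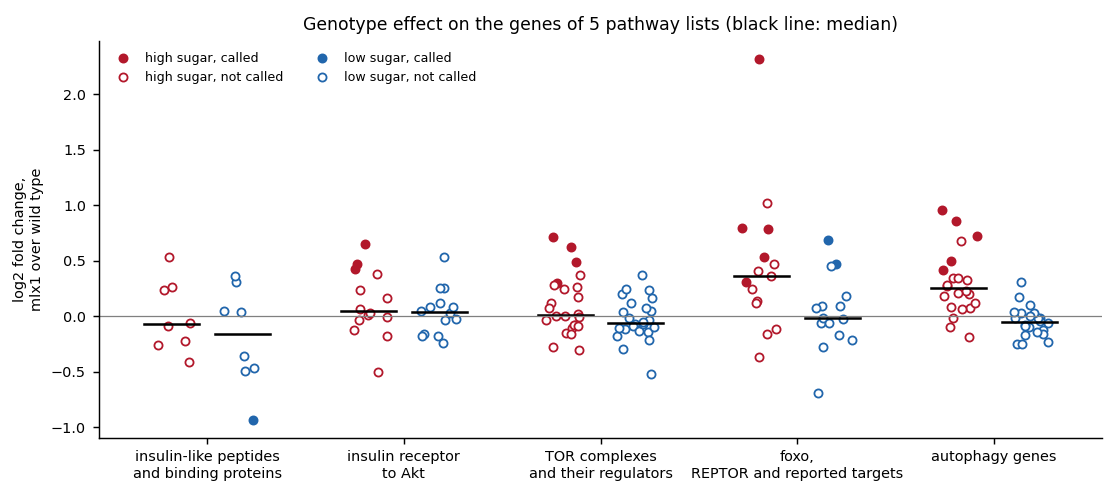
Log2 fold change of mutants over wild type for each tested gene of 5 pathway lists, on high sugar (red) and low sugar (blue), with the median as a black line and called genes filled. On high sugar 17 genes are called and all lie above 0, with bmm at 2.32 the highest.

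Libraries of 1 group differed in moulting-related RNA, and some members moved with it. The mean log2 CPM of 106 cuticle genes was lowest within its group in mutant low-sugar library A (3.70, others 4.73 and 6.34), wild-type high-sugar library C (3.23, others 4.94 and 5.10) and wild-type low-sugar library A (4.20, others 5.97 and 6.42). These 3 were left out together in 1 alternative, although in mutants on low sugar it is library B, at 6.34, that lies furthest from the rest. In mutants on high sugar the mean was 4.11 to 4.73. Taken as deviations from the group mean over the 12 libraries, ImpL2 went with the cuticle genes (r = 0.92) and Akt1 against them (r = -0.74). For InR r was 0.52, for CG18619 0.50, for foxo 0.45, for Thor 0.42, for chico 0.05, for Ilp6 -0.16 and for Sesn -0.33, each a description over libraries that share their group means. Without those 3 libraries the difference of responses was still called for Thor and CG18619 and not for InR (0.75, edgeR adjusted p = 0.0561) or Sesn (0.78, 0.0603). With the cuticle mean as a covariate, ImpL2 was called higher in mutants, by 0.38 for the low-sugar larvae (adjusted p = 0.0136) and by 0.25 for the high-sugar larvae (0.0426).

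**Figure D5:**
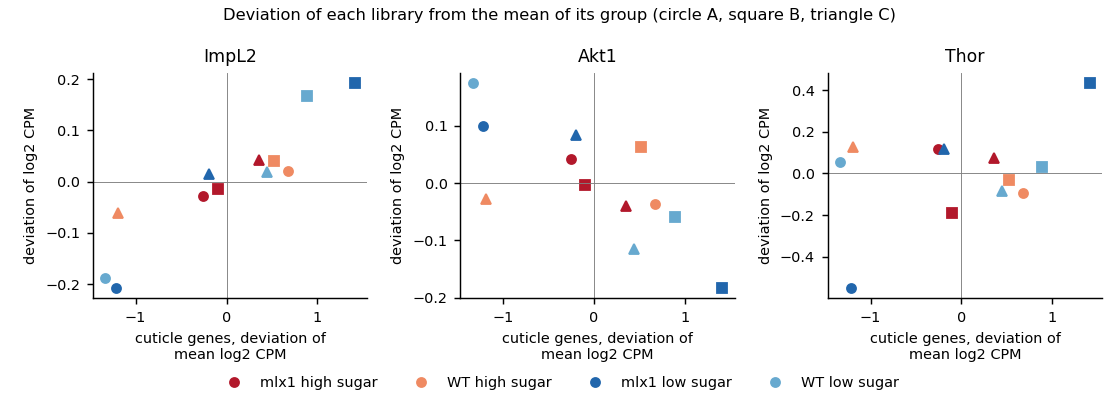
Deviation of each library from its group mean, for the mean log2 CPM of 106 cuticle genes (x axis) and the log2 CPM of ImpL2, Akt1 and Thor (y axes). ImpL2 rises along the x axis, Akt1 falls, and for Thor the 2 extreme points are mutant low-sugar libraries A and B.

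Across the 12 libraries and the 7110 genes with a mean of at least 10 CPM, the log2 CPM of each member was set against that of every other gene. Closest to Thor were CG34454 and bun (r = 0.99 each) and CG9336 (bero, 0.98). Closest to InR were hipk (Hipk, 0.99), CG5953 (0.99) and ana1 (0.98). Sesn was closest to AGO2 (0.99), CG11486 (PAN3, 0.98) and Ubi-p5E (0.98), and CG18619 to CG14687, CG16721 and CG34454 (0.98 each). For Ilp6 the nearest gene was cold (0.94), for chico CG15293 (0.95), for Akt1 cana (0.96), for foxo CG6006 (0.92) and for ImpL2 Hs3st-A (0.89). Among the members, Thor and CG18619 had r = 0.97 over the 12 libraries and r = 0.80 for the deviations from the group means, while Thor and Sesn had 0.92 and 0.03. The points share 4 group means, and the first value of each pair mostly reflects those.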

How the data were processed

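The 12 libraries come as 1 table of counts per exon entry, deposited by the authors without scaling. The submitters' processing notes name BWA 0.5.9, HTSeq 0.6.1 and SAMtools. Build, annotation and strand setting: not given in the sources used here. The column names end in L2 for low-sugar and L3 for high-sugar libraries, of unstated meaning, and give 1 h where the titles give 1.5 h. Of the entries, 36% overlap another, and 67.2% of these were 0 in every library, against 9.26% of the others. A further 42 entries without a gene name, at most 0.0148% of a library's counts, were left out.

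Counts of 82004 entries were summed per gene. Genes passing filterByExpr (10045) were fitted with edgeR 4.0.16 in R 4.3.3 (TMM, robust quasi-likelihood F test, 4 group means, 8 residual degrees of freedom, common dispersion 0.0619), with two-sided tests and Benjamini-Hochberg adjustment. Errors are standard errors, the absolute log2 fold change over the square root of F, and 95% intervals use the moderated degrees of freedom. Exon entries were tested likewise (35116) and for usage with diffSpliceDGE (32629). The script was tested on simulated data. Alternatives were other scalings, filters, exon sums, DESeq2 1.42.0, blocks, a cuticle covariate and leaving out libraries. Low-sugar libraries of the same letter, 1 of each genotype, had positive r of their deviations for every letter (0.74, 0.69 and 0.17 for A, B and C). This held in no other pair of groups that share a diet or a genotype (-0.54 to 0.36, with letter B at 0.36 and 0.34 in 2 of them). Pairs of groups that differ in both were not compared. The letter was therefore also used as a block within low sugar, a choice made after seeing the data.

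The members, lists, markers and tests were chosen with earlier results of these data known. Named beyond the members were, from each list and contrast, up to 3 called genes by p, provided that the higher group averaged 5 CPM or more, and for each member the 3 genes of highest Pearson r among those averaging 10 CPM or more, of which the report prints those that bear on it.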

Additional observations from a re-analysis of the deposited data

Results flagged for a closer look

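The diet response differed between mutants and wild type in 4 members, tested as the mutant response minus the wild-type response with edgeR's quasi-likelihood test. All 4 had a higher response in mutants, where 3.32% of all genes tested had a higher and 3.57% a lower one. The difference was 1.47 for Thor, with responses of 2.63 in mutants and 1.16 in wild type on the log2 scale. It was 1.00 for CG18619, with responses of 1.83 and 0.83 in mutants and wild type, 0.81 for InR, with 1.38 and 0.57, and 0.75 for Sesn, with 1.45 and 0.70. All 3 mutant libraries stood above all 3 wild-type libraries on high sugar in each of the 4 genes. The genotypes did not overlap there in 37.9% of all genes tested. The edgeR adjusted p-values of the 4 differences were 0.0102, 0.0411, 0.0296 and 0.0409. Thor alone kept its call without any 1 library. The calls of CG18619, InR and Sesn were lost without any 1 of 8, 9 and 9 libraries. Single exon entries of InR were mixed, with a positive difference in 9 and a negative one in 3.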

How the results depend on the processing

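No member or named gene called in either setting reversed its direction, and the 6 members called in the mutant diet response and the 4 called in that of wild type kept their calls under every alternative run. For genotype on low sugar, 361 genes were called, against 122 with only its own groups in the fit, 626 with the cuticle covariate, 653 with DESeq2 and 996 with the replicate block within low sugar. There the members called higher were 0, against 1 with the cuticle covariate and 2 with the replicate block within low sugar. The members called lower were 1, against 0 without the 3 libraries with low cuticle RNA or with only its own groups, and 2, Ilp6 and Thor, with DESeq2 or the replicate block within low sugar. Of the genes of the 5 lists 3 were called, against 1 without the 3 libraries, 0 with only its own groups, 5 with the cuticle covariate or DESeq2 and 10 with the replicate block within low sugar. On high sugar 1392 genes were called, against 2252 with the cuticle covariate and 2121 with the block, and 17 list genes, against 27 and 29. For the difference of responses 692 genes were called, against 1383 with the covariate, 1678 with the block and 1202 with DESeq2, 11 list genes, against 21 with the block, and 4 members, against 2 without the 3 libraries. With the letter as a replicate block over all 12 libraries the difference for InR was 0.81 and not called (edgeR adjusted p = 0.0527), and no other member changed its call.

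Leaving out 1 library gave 1423 to 2755 genes called for the diet response of wild type, with 18 to 30 list genes and 4 to 6 members higher. It gave 2025 to 3090 genes, 37 to 46 list genes and 6 to 6 members for mutants, and 825 to 1677 genes, 8 to 20 list genes and 3 to 5 members for genotype on high sugar. For genotype on low sugar it gave 180 to 441 genes, 0 to 4 list genes, 0 to 1 members higher and 0 to 2 lower, and for the difference of responses 271 to 1021 genes, 4 to 13 list genes and 1 to 4 members. CG18619 and Ilp6 had the fewest counts per library of the 9, 75 to 354 and 78 to 274. The cause of these shifts was not tested.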
